A study of Gallus gallus with 9 samples.

Results

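R-spondins, their receptors, WNT4, WNT11, LEF1 and APC form the WNT signalling genes described here, as expressed in 2 cell fractions of the chicken embryonic gonad. The 10 genes (RSPO1, RSPO2, RSPO3, LGR4, LGR5, ZNRF3, WNT4, WNT11, LEF1 and APC) were taken by the symbol in the platform annotation, and all 10 were among the 13009 genes measured. Each was read from the brightest of its probe sets, by the mean of all 9 arrays. The arrays were Affymetrix GeneChip Chicken Genome Arrays, hybridised with total RNA from gonads of WL embryos at 6.5 days. Magnetic-activated cell sorting (MACS) had parted the cells into PGC (3 arrays) and GSC (6 arrays), with no treatment named for either. PGC commonly abbreviates primordial germ cell, the embryonic precursor of sperm and egg, whereas the labels leave GSC unexpanded. The labels give no genotype, no embryonic sex and no sorting antigen, and they do not say whether replicates were separate pools of embryos. The p-values therefore reflect differences among the replicate preparations alone, which can be technical.

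WNT proteins are secreted lipid-modified ligands that bind Frizzled receptors with the co-receptors LRP5 and LRP6. Without a ligand, a complex that holds the scaffold APC marks beta-catenin for destruction. With a ligand, beta-catenin accumulates and joins DNA-bound factors of the TCF and LEF family, LEF1 among them, at target genes. R-spondins are secreted proteins that bind the receptors LGR4 to LGR6 and take the membrane E3 ligases ZNRF3 and RNF43 off the cell surface. These ligases remove Frizzled receptors, so R-spondins raise the response to WNT. In mouse and chicken gonads, RSPO1 and WNT4 are known for their part in ovarian development.

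The values are log2 expression values from RMA, a method that corrects background, normalizes arrays and summarises the probes of a probe set. The 57 reporter probe sets on the array, which are meant for foreign sequences, gave a background level. The 95th percentile of their values, 2.88 (log2), is called the reporter mark, and a gene below it may not be measured above background. Array medians lay between 3.03 and 3.12, and the number of arrays limits the precision. PGC replicate 3 correlated at 0.956 to 0.969 with the GSC arrays over all probe sets, against 0.930 to 0.950 for PGC replicates 1 and 2. The counts of calls and the changes of the 10 genes and of 27 other pathway genes were therefore also computed without it.

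Of the 10 genes, limma called 1 higher in PGC (RSPO3) and 4 lower (LEF1, WNT11, WNT4 and APC) at an adjusted p under 0.05, and 5 were not called. Over all 13009 genes, 22.5% were called higher and 19.5% lower, 42.0% in all, and 5 of 10 lay near that background. The median log2 change of the 10 genes was -0.21, against -0.02 over all genes. Without PGC replicate 2, 2 of the 10 were lower, as WNT4 and APC lost their call. In 3 of the 10 genes the fractions did not overlap, which was the case in 36.3% of all genes. The lowest PGC value exceeded the highest GSC value for RSPO3 (19.7% of all genes) and the highest PGC value was under the lowest GSC value for WNT11 and LEF1 (16.7% of all genes). In RNA from sorted fractions, fewer cells of a type and less RNA per cell cannot be told apart.

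**Figure D1:**
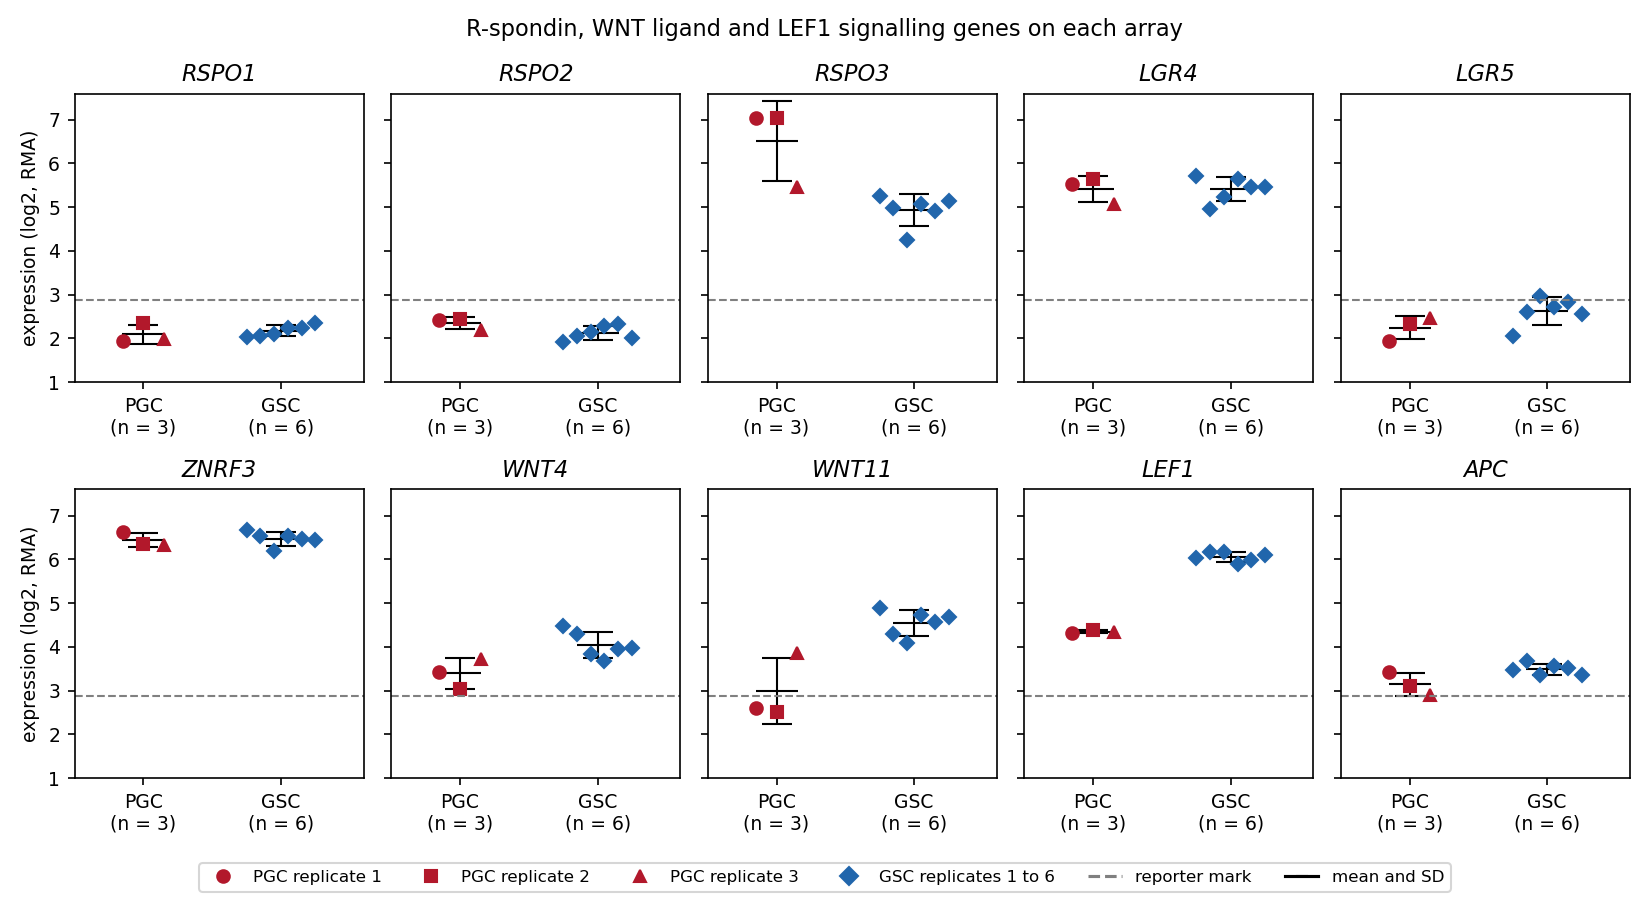
Expression (log2, RMA) of the 10 genes on each array, with PGC arrays (n = 3, red) left of GSC arrays (n = 6, blue), black bars for mean and SD, and a dashed line at the reporter mark of 2.88. RSPO3 lies higher in PGC with replicate 3 at 5.45, LEF1 lies lower on all 3 PGC arrays within 4.31 to 4.39, and RSPO1 and RSPO2 lie below the mark on every array.

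Among the secreted R-spondins, RSPO3 rose in PGC and the other 2 measured members were below the reporter mark on all 9 arrays. RSPO3 measured 7.03, 7.03 and 5.45 (log2) on PGC replicates 1, 2 and 3, against a lowest value of 4.24, a median of 5.03 and a highest of 5.27 on the GSC arrays. PGC replicates 1 and 2 stood well above every GSC array, and PGC replicate 3 stood just above the highest of them. The means were 6.51 ± 0.91 in PGC (SD, n = 3) and 4.94 ± 0.36 in GSC (SD, n = 6). That is a 2.96-fold difference, with a log2 change of 1.57 ± 0.33 (SE, 95% interval 0.83 to 2.30, limma adjusted p = 0.00289). The larger spread in PGC means that the pooled SE is understated for that fraction. Without PGC replicate 3 the change was 2.09.

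A further RSPO3 probe set gave the same direction. It measured 6.85, 6.33 and 5.57 on the PGC arrays, against 4.24 to 4.65 on the GSC arrays, and PGC replicate 3 was again the lowest of the PGC arrays. Its log2 change was 1.75 ± 0.22 (SE, limma adjusted p = 1.86e-04 over all 38439 probe sets). The third RSPO3 probe set lay below the mark on all 9 arrays, at 1.46 to 1.49 in PGC and 1.39 to 1.55 in GSC.

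RSPO1, the R-spondin of ovarian development, measured 1.94, 2.35 and 1.98 on the PGC arrays, against 2.03 to 2.35 on the GSC arrays with a median of 2.18. RSPO2 measured 2.41, 2.44 and 2.20 on the PGC arrays, against 1.93 to 2.32 on the GSC arrays with a median of 2.10. The fractions overlapped for both genes, and neither passed the test (RSPO1 log2 change -0.08, 95% interval -0.34 to 0.18, adjusted p = 0.638, and RSPO2 0.23, -0.03 to 0.48, adjusted p = 0.142). Each has 1 probe set on this array, so a low level of these transcripts and probes that read them poorly cannot be told apart here. RSPO4 is not listed by the annotation and was not analysed here.

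The R-spondin receptors and the E3 ligase were not called. LGR4, a receptor that binds R-spondins, measured 5.52, 5.64 and 5.07 on the PGC arrays, against 4.96 to 5.71 on the GSC arrays with a median of 5.45. All 3 PGC arrays lay inside the GSC range, and the log2 change was 0.00 with a 95% interval of -0.39 to 0.39 (adjusted p = 0.997). ZNRF3, which removes Frizzled receptors from the membrane, measured 6.63, 6.36 and 6.34 on the PGC arrays, against 6.19 to 6.68 on the GSC arrays with a median of 6.50. Its log2 change was -0.03 (95% interval -0.30 to 0.24, adjusted p = 0.868). These intervals leave room for a change of up to 0.39 for LGR4 and 0.30 for ZNRF3 on the log2 scale.

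A dimmer ZNRF3 probe set did not give the same answer. It measured 2.86, 2.91 and 3.04 on the PGC arrays, against 3.42 to 3.82 on the GSC arrays, and was at least 1.58-fold lower in PGC (fitted log2 change -0.67 ± 0.11 SE, limma adjusted p = 7.94e-04 over all probe sets). PGC replicate 1 lay below the reporter mark there. With the mean of both ZNRF3 probe sets in place of the brighter, the log2 change was -0.35 (adjusted p = 0.0121).

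LGR5, a receptor of stem cells in many epithelia and a WNT target, was near or below the mark throughout. Its brightest probe set measured 1.94, 2.33 and 2.46 on the PGC arrays, against 2.05 to 2.97 on the GSC arrays with a median of 2.66. It was not called (log2 change -0.38, 95% interval -0.79 to 0.04, adjusted p = 0.137), except without GSC replicate 1 (-0.49, adjusted p = 0.0206). Another LGR5 probe set was called higher in PGC (log2 change 0.54, adjusted p = 0.00201 over all probe sets), with every array below the mark, so that no fold is given. LGR6, the third receptor of this family, did not pass either (log2 change -0.07, adjusted p = 0.577).

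Both WNT ligands among the 10 genes fell in PGC. WNT11, a ligand mainly known for beta-catenin-independent signalling, measured 2.61, 2.52 and 3.86 on the PGC arrays, against a lowest value of 4.10, a median of 4.64 and a highest of 4.89 on the GSC arrays. PGC replicates 1 and 2 lay below the reporter mark, and PGC replicate 3 lay between them and the GSC arrays. WNT11 averaged 3.00 ± 0.75 in PGC (SD, n = 3) and 4.55 ± 0.29 in GSC (SD, n = 6). With the arrays below the mark set at the mark, it was at least 2.54-fold lower in PGC (fitted log2 change -1.55 ± 0.28 SE, limma adjusted p = 9.74e-04, and -1.99 without PGC replicate 3). A further WNT11 probe set was at least 1.24-fold lower (fitted log2 change -0.52 ± 0.14 SE, adjusted p = 0.0178 over all probe sets), and the third did not pass (-0.22, adjusted p = 0.263). The mean of all 3 had a log2 change of -0.77.

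WNT4, a ligand of the developing ovary and of nephric tubules, measured 3.42, 3.04 and 3.73 on the PGC arrays, against 3.68 to 4.48 on the GSC arrays with a median of 3.97. PGC replicate 3 lay inside the GSC range and the other PGC arrays lay below it. The means were 3.40 ± 0.35 in PGC (SD, n = 3) and 4.04 ± 0.30 in GSC (SD, n = 6), a 1.56-fold difference (log2 change -0.64 ± 0.19 SE, 95% interval -1.06 to -0.21, limma adjusted p = 0.0199). WNT4 no longer passed without PGC replicate 1 (-0.65, adjusted p = 0.0530), and neither did it without PGC replicate 2 (-0.46, adjusted p = 0.106).

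LEF1, which binds DNA and recruits beta-catenin to target genes, gave the lowest adjusted p of the 10. It measured 4.31, 4.39 and 4.35 on the PGC arrays, against a lowest value of 5.90, a median of 6.07 and a highest of 6.17 on the GSC arrays. The 3 PGC arrays lay close together and far below every GSC array. LEF1 averaged 4.35 ± 0.04 in PGC (SD, n = 3) and 6.06 ± 0.11 in GSC (SD, n = 6). It was 3.27-fold lower in PGC (log2 change -1.71 ± 0.09 SE, 95% interval -1.92 to -1.50, limma adjusted p = 3.96e-07). Leaving out any array in turn kept the change between -1.74 and -1.69.

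A second LEF1 probe set measured 1.69, 1.91 and 1.97 on the PGC arrays, all below the mark, against 3.32 to 3.82 on the GSC arrays, all above it. It was at least 1.57-fold lower in PGC (fitted log2 change -1.67 ± 0.14 SE, limma adjusted p = 1.41e-05 over all probe sets). The third LEF1 probe set lay below the mark on all 9 arrays and did not pass (-0.06, adjusted p = 0.713).

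APC, the scaffold of the beta-catenin destruction complex, changed least among the called genes. It measured 3.43, 3.12 and 2.89 on the PGC arrays, against 3.36 to 3.68 on the GSC arrays with a median of 3.50. PGC replicate 1 lay inside the GSC range, and PGC replicate 3 lay at the reporter mark. The log2 change was -0.35 ± 0.13 (SE, 95% interval -0.63 to -0.07, limma adjusted p = 0.0472), a 1.27-fold difference. It was -0.22 without PGC replicate 3 (adjusted p = 0.168) and -0.13 with the mean of the 4 APC probe sets (adjusted p = 0.168). This call was lost under 13 of 16 alternatives and when p-values were adjusted over all probe sets (adjusted p = 0.0577). The other 3 APC probe sets lay below the mark on all 9 arrays and were not called.

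Over the 10 genes, 22 probe sets were present, and 12 of them were not the brightest of their gene. Of these 12, 5 were called (28.4% of all probe sets were). Below the mark on every array lay 7 of the 12, the called LGR5 probe set among them. By the looser measure of a mean over all arrays below the mark, 46.6% of all tested probe sets were dim. Among the 5 called genes, 0 had a further probe set called the other way. WNT4 had no further probe set that could show this, and those of APC lay below the mark and were not called. Of the uncalled genes, ZNRF3 and LGR5 had a further probe set that was called, as given above.

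**Figure D2:**
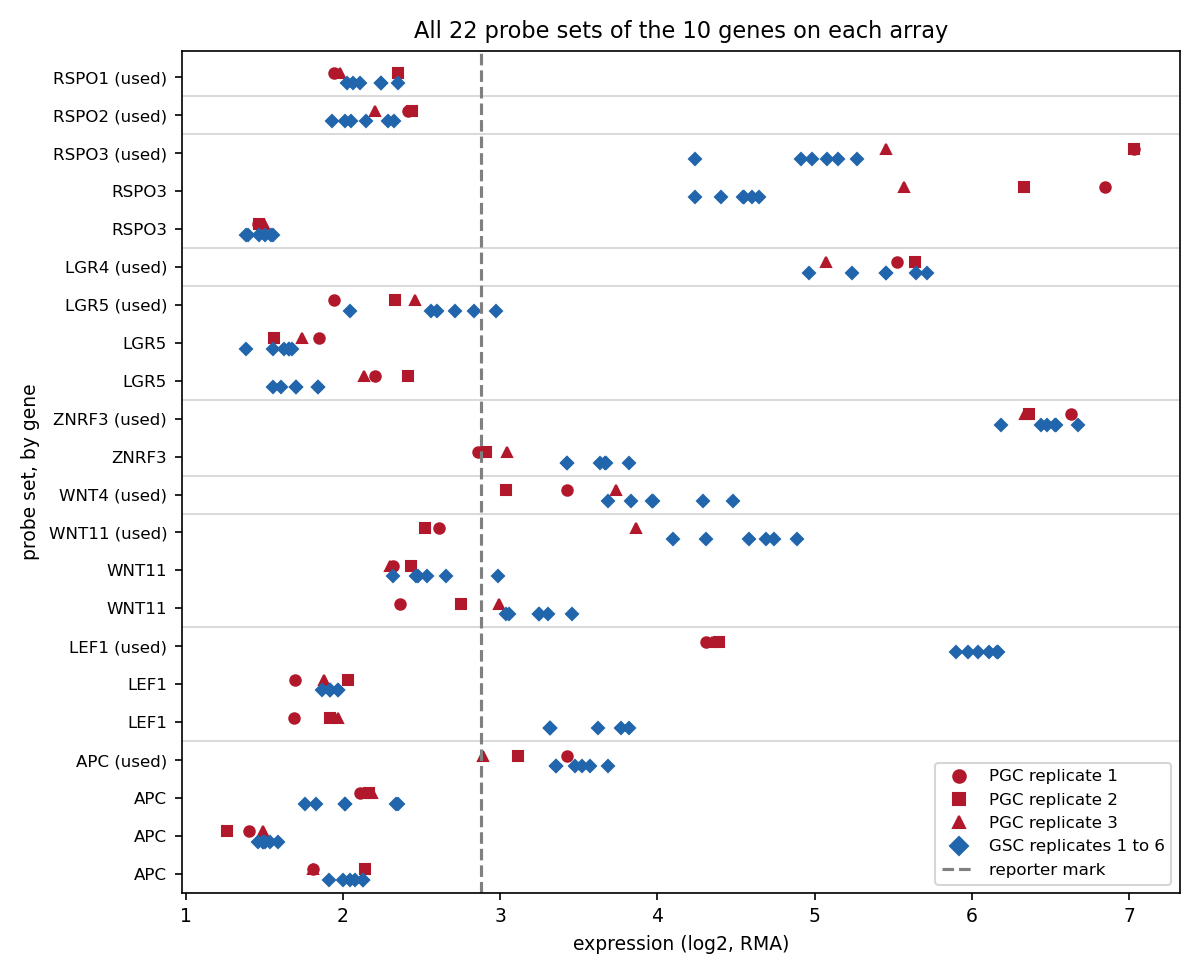
Expression (log2, RMA) of all 22 probe sets of the 10 genes, with PGC arrays (red, upper row of each probe set) above GSC arrays (blue) and a dashed line at the reporter mark of 2.88. The 2 brighter RSPO3 probe sets lie higher in PGC and the 2 brighter LEF1 probe sets lie lower, while the ZNRF3 probe sets differ from each other, at log2 changes of -0.03 and -0.67.

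The other genes of the pathway were read from lists by role, chosen with earlier results of these data known. Of 98 listed genes, 83 were measured. Of these, 11 were called higher and 33 lower in PGC (13.3% and 39.8%, against 22.5% and 19.5% of all genes). A further 39 were not called. Both means lay below the reporter mark for 25 of the 83, against 2834 of all 13009 genes. Their median log2 change was -0.19, against -0.02 over all genes. Without PGC replicate 3 or any other array in turn, 9 to 12 were higher and 26 to 34 lower.

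The counts by role that follow stand against the same 22.5% higher and 19.5% lower over all genes. Counts with both means below the mark stand against the same 2834 of 13009 genes. Of 18 measured WNT ligands, 5 were lower, 1 was higher and 12 were not called, and 11 had both means below the mark. Beside WNT4 and WNT11, WNT5A, a ligand of beta-catenin-independent signalling, measured 5.42, 6.09 and 6.51 on the PGC arrays, against 7.13 to 7.73 on the GSC arrays. It was 2.89-fold lower (log2 change -1.53 ± 0.21 SE, limma adjusted p = 1.98e-04, and log2 change -1.08 with the mean of its probe sets). WNT6 fell by 1.31 on the log2 scale (-1.77 without PGC replicate 3) and WNT16 by 1.20. The ligand called higher, WNT2, lay below the mark on all 9 arrays, so that no fold is given. WLS, which carries WNT proteins to the cell surface, rose by 0.43 ± 0.11 (SE, adjusted p = 0.00912). This call was lost without PGC replicate 1 (0.34) and with the replicate number as a block (limma adjusted p = 0.0805). The block leaves GSC arrays without a PGC array of their number out of the comparison.

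Of 15 Frizzleds and co-receptors, 4 were higher and 7 lower, and 4 had both means below the mark. Among the 7 lower was RYK, below the mark on all 3 PGC and all 6 GSC arrays, so that no fold is given. FZD4, FZD2 and the WNT5A receptor ROR1 fell by 1.59, 1.39 and 1.33, whereas FZD9 and FZD8 rose by 1.00 and 0.94, and FZD5, below the mark on all 6 GSC arrays, rose at least 1.80-fold (fitted log2 change 1.49, against 0.53 with the mean of its probe sets). With the mean of its probe sets, FZD8 rose by 0.48.

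Secreted inhibitors changed in both directions, with 2 of 14 higher and 4 lower. NOTUM, an enzyme that removes the lipid from WNT proteins and is itself a WNT target, measured 4.76, 4.51 and 4.00 on the PGC arrays, against 2.63 to 3.16 on the GSC arrays, where 3 of 6 lay below the mark. It rose at least 2.77-fold (fitted log2 change 1.55 ± 0.17 SE, limma adjusted p = 3.60e-05, and log2 change 0.97 with the mean of its probe sets). SFRP2, a Frizzled-related protein that binds WNT, measured 8.33, 8.01 and 7.79 on the PGC arrays, against 6.42 to 6.79 on the GSC arrays. It rose 2.77-fold (log2 change 1.47 ± 0.13 SE, adjusted p = 1.04e-05). The related inhibitors SFRP1 and FRZB fell by 0.73 and 0.68, and SOSTDC1 by 0.77. With the mean of its probe sets, SFRP1 fell by 0.39.

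Among the 13 measured genes of beta-catenin turnover, 7 were lower and 1 was higher. AXIN2, a scaffold of the destruction complex and a common readout of the pathway, measured 5.25, 5.34 and 5.38 on the PGC arrays, against 6.06 to 6.30 on the GSC arrays. The PGC arrays lay close together below every GSC array. AXIN2 was 1.82-fold lower (log2 change -0.87 ± 0.09 SE, limma adjusted p = 3.48e-05). With the mean of its probe sets the change of AXIN2 was -0.64 (limma adjusted p = 0.00471). CTNNB1, which encodes beta-catenin, fell by 0.58, the kinase gene CSNK1A1 by 0.74 and APC as above, and AMER1, which binds APC, rose by 0.91.

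Of 10 nuclear factors, 5 were lower and 1 was higher. Beside LEF1, the co-repressor TLE1 fell 3.21-fold (log2 change -1.68 ± 0.20 SE, adjusted p = 7.90e-05). BCL9L, a partner of beta-catenin below the mark on 1 PGC array, fell at least 1.77-fold and lost its call without PGC replicate 1 (log2 change -0.57, adjusted p = 0.0563, against -0.95). The change of BCL9L was -0.62 with the mean of its probe sets. TCF7L2, a factor related to LEF1, fell by 0.60 but lost its call under 6 of 16 alternatives. These were leaving out PGC replicate 1 (adjusted p = 0.0768), PGC replicate 2 (0.144) or GSC replicate 4 (0.0538), the replicate block (0.0559), array weights (0.0894) and the mean of its probe sets (log2 change -0.24, adjusted p = 0.0927). TCF7L1 was not called (0.52, adjusted p = 0.131), except without PGC replicate 2 (0.86, adjusted p = 0.0145). CTNNBIP1, which keeps beta-catenin from TCF factors, rose by 0.54. TCF7 was not analysed here.

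Genes known as WNT targets in other systems were lower in 7 of 10 measured members and higher in 1, NOTUM, with a median log2 change of -0.90 (over all genes 19.5% were lower and 22.5% higher, and the median was -0.02). This list shares LEF1, AXIN2, LGR5, ZNRF3 and NOTUM with those above. MYC fell by 1.54 and APCDD1, a membrane inhibitor of WNT, by 1.39. The list members TNFRSF19, CCND1 and NKD1 fell by 0.99, 0.93 and 0.87. For NKD1, PGC replicate 2 (4.48) lay inside the GSC range of 4.31 to 4.71, and PGC replicates 1 and 3 (3.28 each) lay below it.

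**Figure D3:**
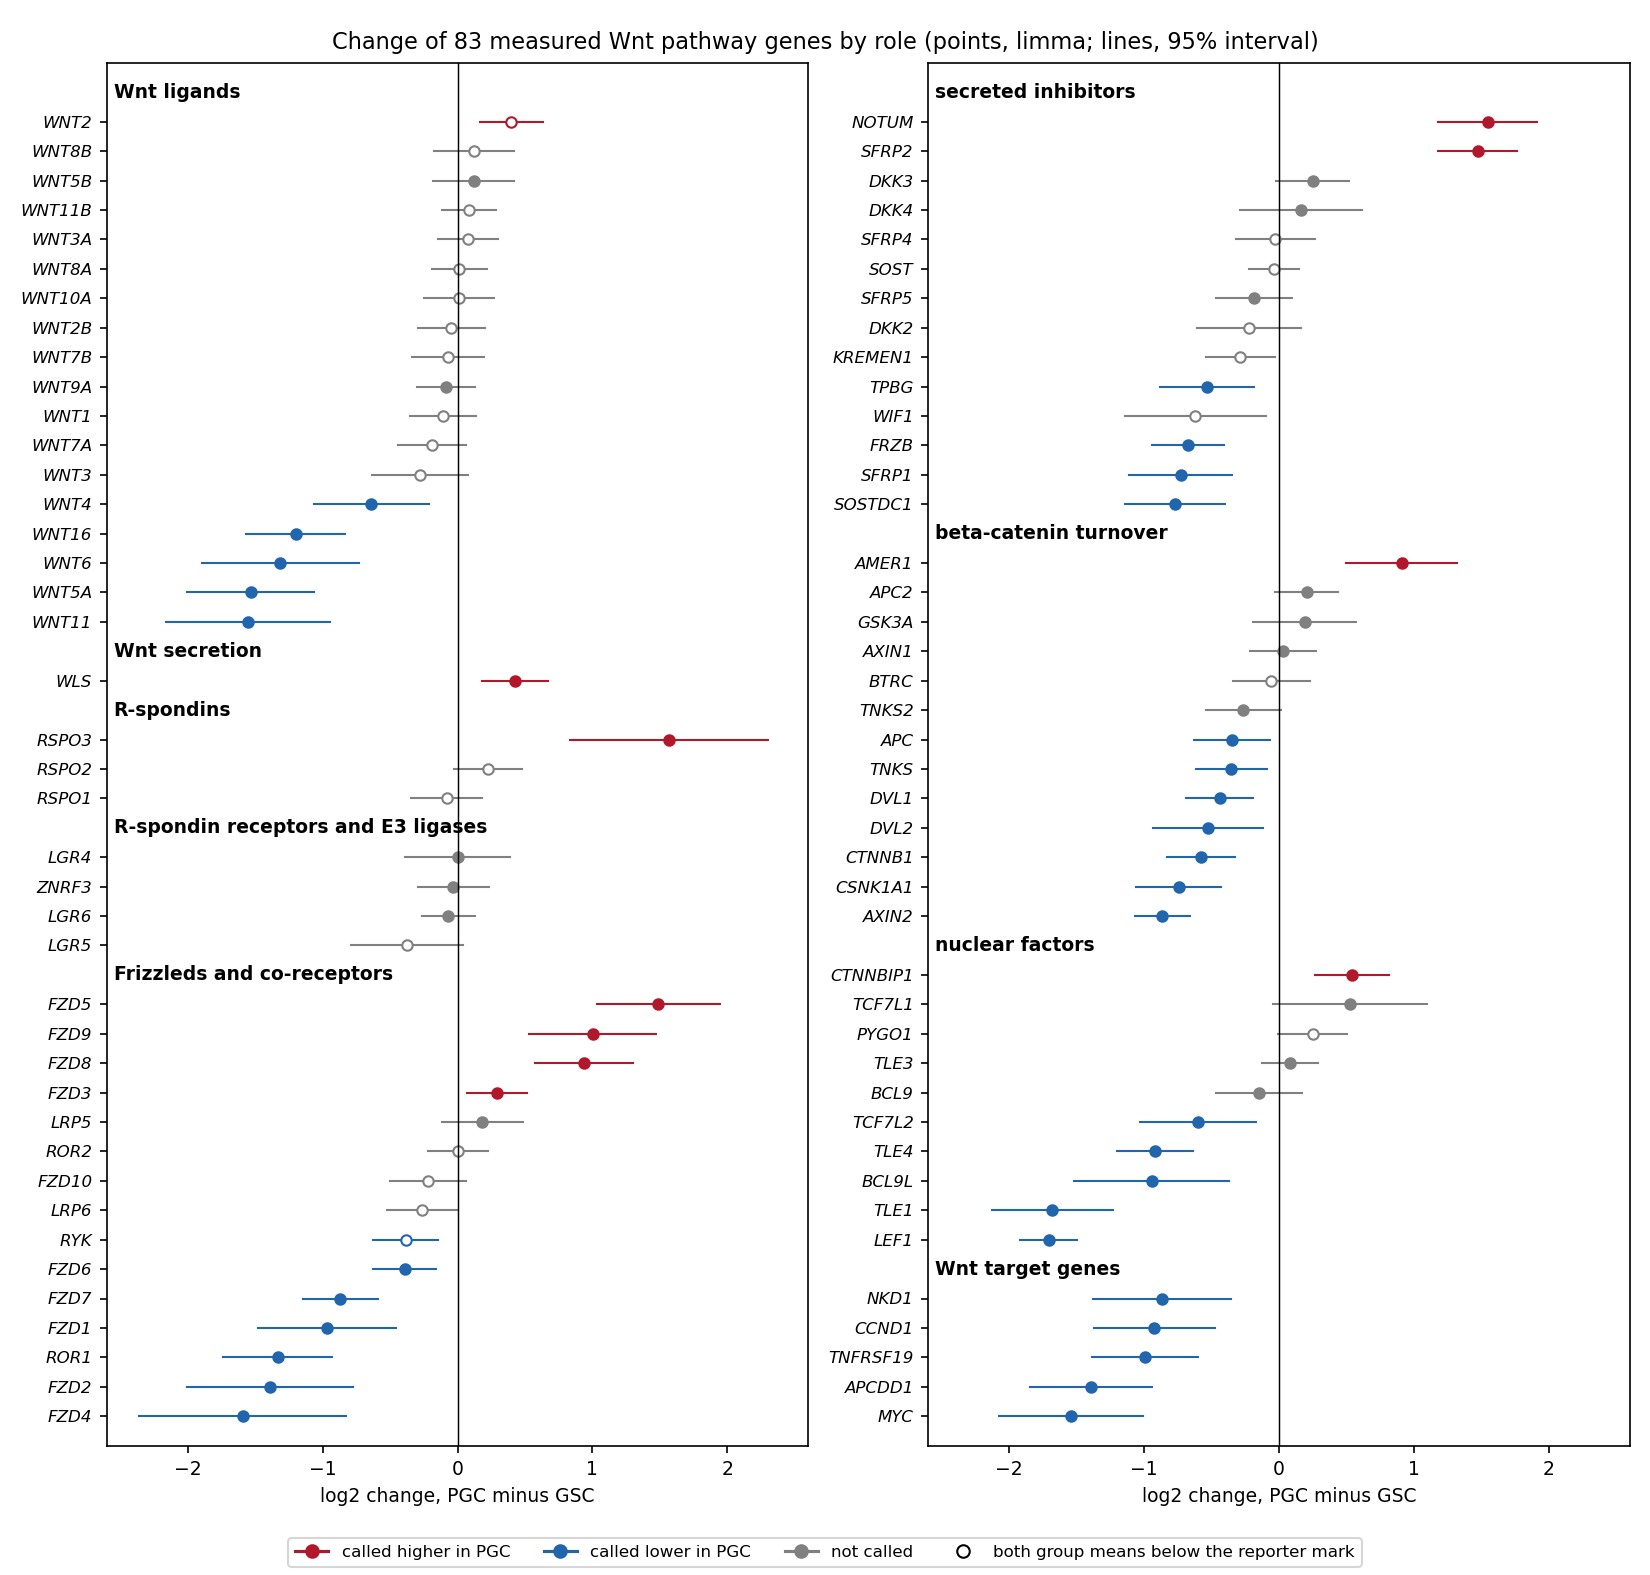
Log2 change (PGC minus GSC) with its 95% interval for the 83 measured WNT pathway genes, grouped by role, with genes of more than 1 list drawn once. Red marks genes called higher in PGC (11), blue those called lower (33), grey those not called (39), and open points those with both means below the reporter mark (25).

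The PGC arrays differed among themselves in how far these genes lay from the GSC mean. As a description made after the values were seen, the distance of PGC replicate 3 from the GSC mean was set against that of PGC replicates 1 and 2 on average. For LEF1 it was 100.1% and for AXIN2 89.9%, so that PGC replicate 3 was as far from GSC as the others, or nearly so. For RSPO3 it was 24.6%, for WNT11 34.5%, for WNT4 37.5% and for WNT6 22.4%. NOTUM (63.7%), SFRP2 (75.8%) and WNT5A (57.9%) lay between. The other RSPO3 probe set above the mark had 51.2%, so the share of RSPO3 depended on the probe set. APC, the remaining called member, had 269.9%, as PGC replicate 3 lay farthest from GSC there. Other called pathway genes above 100% included NKD1 (190.4%), AMER1 (147.5%), SOSTDC1 (139.7%) and FZD8 (130.5%). A share above 100% does not by itself make PGC replicate 3 the farthest array. NKD1 lay -1.26, -0.07 and -1.27 from the GSC mean on PGC replicates 1, 2 and 3. AMER1 and FZD8 lay 1.18 and 1.22 from it on PGC replicate 1, against 1.16 and 1.11 on PGC replicate 3. Over the 5466 called genes the median share was 66.1% (quartiles 40.7% and 96.8%). Of these genes, 26.2% reached at least 95% and 23.0% exceeded 100%.

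Marker genes varied over the PGC arrays as well. For the germ cell markers DDX4 and DAZL the same share was 77.5% and 77.7%, for the gonadal somatic factors GATA4, LHX9 and NR5A1 it was 29.0%, 55.6% and 23.8%, and for LRP2 and CUBN, endocytic receptors of kidney tubules, 94.1% and 106.4%. Markers of the same mesonephric list that were lower in PGC had smaller shares, at 26.9% for UMOD, 42.6% for PAX2 and 6.4% for GATA3. GATA3 lay below the reporter mark on all 9 arrays. The counts of called markers that follow stand against 22.5% higher and 19.5% lower over all genes. All 9 measured germ cell markers were called higher. Their summed linear level (the sum of the values taken off the log2 scale) was 2091 to 4016 in PGC and 213 to 262 in GSC. Of 13 gonadal somatic markers 11 were lower (summed level 1757 to 4919 in PGC and 5388 to 7097 in GSC), and PGC replicate 3 had the highest of these PGC sums. AMH, the brightest of the 13 (log2 mean 10.95 in PGC and 11.57 in GSC), weighed most in these sums. It was not called (limma adjusted p = 0.0562). Of 10 mesonephric epithelium markers 6 were higher and 3 lower (957 to 1394 in PGC and 200.2 to 280 in GSC). The 6 higher were LRP2, CUBN, SLC3A1, SLC34A2, HNF4A and CDH1, and CDH1 had the highest PGC mean of them (8.42). On all GSC arrays 3 of the 10 mesonephric markers were below the mark, HNF4A, GATA3 and LHX1. Of these, GATA3 and LHX1 were below it on all PGC arrays as well, and HNF4A was not. Of 8 endothelial markers 6 were lower (134 to 372 in PGC and 516 to 771 in GSC). Erythroid markers were lower in 3 of 7 (10818 to 14168 in PGC and 13862 to 18579 in GSC) and leukocyte markers in 3 of 6, with 1 higher (105 to 168 in PGC and 179 to 224 in GSC). The globins HBA1, HBAD, HBE and HBZ, none of them called, weighed most in the erythroid sums. Among the PGC arrays, the gonadal somatic, endothelial, erythroid and leukocyte sums were highest and the germ cell sum was lowest on PGC replicate 3. The mesonephric sum of that array was 1118, between those of the other PGC arrays. Of the called members, RSPO3, WNT11 and WNT4 lay nearest to GSC on PGC replicate 3. APC lay farthest from GSC there, and LEF1 lay about as far as on the other PGC arrays. The part of these cell types in the changes of the WNT genes was not tested.

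**Figure D4:**
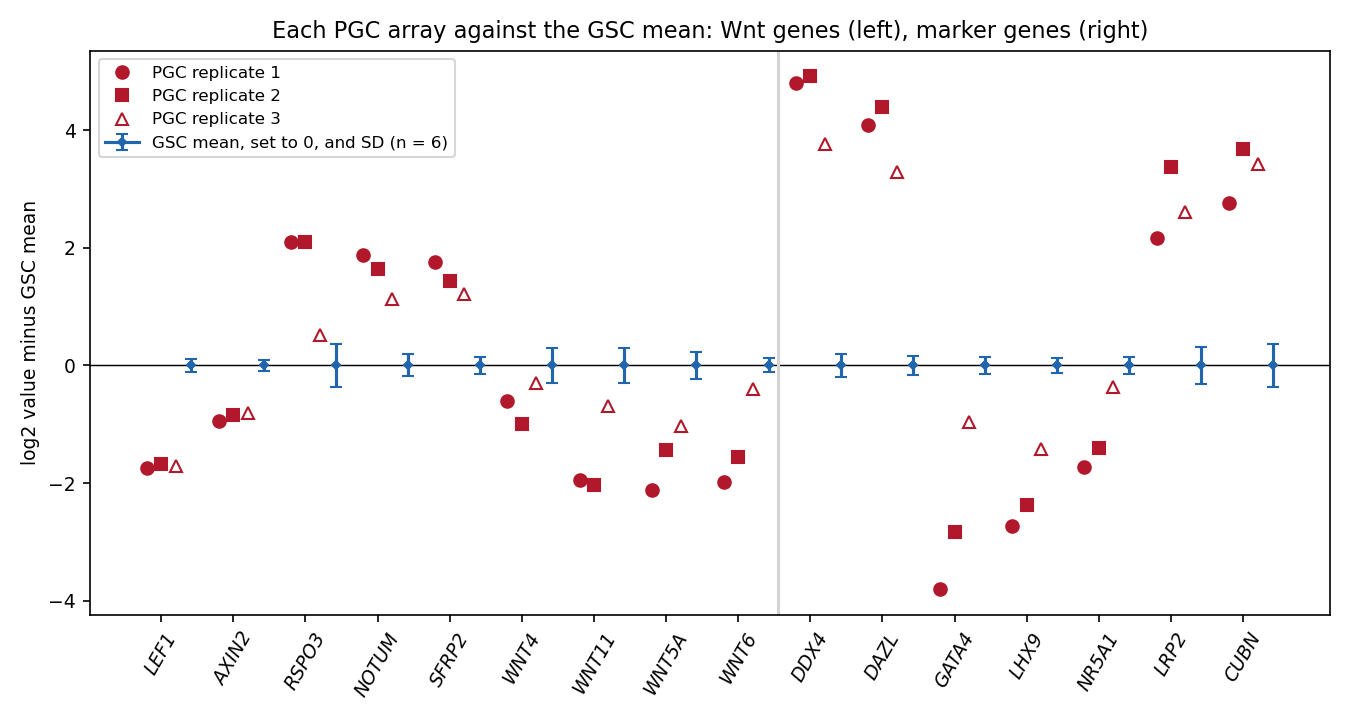
Log2 value of each PGC array (red, replicate 3 open) minus the GSC mean, which is set to 0 with its SD (blue, n = 6), for 9 WNT genes and 7 marker genes. The 3 PGC arrays lie close together for LEF1, whereas for RSPO3, WNT11 and WNT6, and for GATA4 and NR5A1, PGC replicate 3 lies closer to the GSC mean than the others.

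Genes with the pattern most like a member were found by the root mean square difference of log2 values over the 9 arrays, each gene centred on its own mean. Genes with placeholder names were left out. For LEF1 they were CDH18, a cadherin (0.155), BMERB1 (0.167) and HSPA13, a member of the heat shock protein family (0.183). CDH18 measured 3.06, 3.38 and 3.61 on the PGC arrays and averaged 5.08 in GSC. For RSPO3 they were BBS5, a subunit of the ciliary BBSome (0.184), PRIM2, a DNA primase subunit (0.188), and EFCAB11 (0.207), each with PGC replicate 3 lowest of the PGC arrays. BBS5 measured 7.21, 7.37 and 5.98 on the PGC arrays and averaged 5.40 in GSC. RSPO1 did not rise above the mark, so its pattern may be variation of the background alone. Nearest to it were CCP110 (0.0644), SNX7 (0.0792) and PTGR2 (0.0826), none with a log2 change beyond -0.11. With placeholder names kept, SNX7 would rank 3 and PTGR2 4. CCP110 itself lay below the mark on all 9 arrays.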

How the data were processed

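The deposited values were 1 log2 value per probe set and array, made by the authors with RMA, per the submitters' processing notes. No source used here states its version, and the log2 scale was taken from the range of the values. RMA compresses low values, so changes of dim genes may be understated, which was not measured here. A change that lies wholly below the reporter mark may not be measured above background at all. Of 38535 probe sets, 96 AFFX controls were left out and 38439 tested. The platform annotation gave 1 symbol for 27168 of these, several for 177 (not named) and none for 11094. Of the named ones, 26853 had an Entrez identifier in a RefSeq table of assembly GRCg7b, used for names only. The brightest probe set stood for each of 13009 genes.

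Genes were fitted on cell fraction over all 9 arrays in R 4.3.3 with limma 3.58.1 (lmFit, eBayes, two-sided). P-values were adjusted by Benjamini and Hochberg over all genes or probe sets and called under 0.05. On simulated data for this comparison (13009 genes), 84 of 100 changes of 1 and 100 of 100 changes of 2 on the log2 scale were recovered, and 10 genes made without a change were called. The simulation gave each gene the same SD in both fractions and changed far fewer genes than were called here. Its counts therefore need not hold for these arrays. Where arrays of the dimmer fraction lay below the reporter mark they were set at it, and the fold is given as a lower bound. No arrays were identical.

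The genes and lists were chosen with earlier results of these data known. Named genes were the 10 members, up to 3 called genes in each direction with the largest change from each pathway list, and some fixed pathway and marker genes. WNT16, TNFRSF19, CCND1, NKD1, RYK, UMOD, PAX2, GATA3, LHX1 and HNF4A were named after their values were seen. So were AMH, HBA1, HBAD, HBE, HBZ, SLC3A1, SLC34A2 and CDH1. Alternatives were leaving out each array, the replicate number as a block, eBayes with trend and robust, and array weights by fraction. Others were the mean of a gene's probe sets, dim genes left out, median centring and quantile normalization. The block compares only arrays whose number both fractions have, so GSC arrays without a PGC array of their number do not enter it.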

Additional observations from a re-analysis of the deposited data

Results flagged for a closer look

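Among the 6 GSC arrays of 37 genes (the 10 members and 27 other named pathway genes), 3 values, on 2 arrays, stood apart from the rest, where chance marks about 5% of groups. RSPO3 measured 4.24 on GSC replicate 3, below the other GSC arrays by 0.656 of the group's range. FZD2 measured 7.21 and FRZB 9.33 on GSC replicate 4, below the others by 0.786 and 0.658 of the range. The PGC arrays, 3 in number, were not examined in this way.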

How the results depend on the processing

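RSPO3, WNT11 and LEF1 kept their direction and their call under all 16 alternatives, with adjusted p up to 0.0194, 0.0470 and 0.00122. The log2 change itself cannot move with trend and robust eBayes, with array weights by fraction or with dim genes left out. Nor can the mean of probe sets move it for a gene with 1 probe set. In these cases only the call could change, not the direction. The number of members called higher was 1 throughout, and the number called lower was 2 with array weights, 2 with a replicate block and 2 to 4 without each array in turn. WNT4 lost its call under 4 alternatives and APC under 13. The direction of uncalled members turned for RSPO1 with a replicate block (0.027), for LGR4 without PGC replicate 1 (-0.05), PGC replicate 2 (-0.11), GSC replicate 2 (-0.09) or GSC replicate 3 (-0.033), in a range of -0.11 to 0.17 without each array, and with quantile normalization (-0.0071), for LGR5 with the mean of its probe sets (0.10), and for ZNRF3 without PGC replicate 2 (0.011), PGC replicate 3 (0.022) or GSC replicate 1 (0.011), in a range of -0.12 to 0.022 without each array. Of 430 values for 27 other named pathway genes, 414 kept their direction and side of the threshold, 15 lost a call, 1 gained one and 0 turned. CTNNB1, CTNNBIP1, AMER1 and SFRP1 each lost their call under 1 alternative (limma adjusted p up to 0.0506, 0.0503, 0.0534 and 0.0583). WNT2 and WLS each lost theirs under 2. Leaving out dim genes gave no value for members below the mark.

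The replicate numbers were not taken to pair the arrays. The deviations of same-numbered arrays correlated at 0.18, -0.34 and 0.11, and 1 of 3 PGC arrays correlated best with its own number. A fit with the replicate block compares only arrays whose number both fractions have, so the other GSC arrays do not enter the change. It therefore rests on fewer arrays than the main fit. With the replicate block, 6 Wnt pathway genes were higher and 22 lower (11 and 33 without it). Of all genes, 1845 were higher and 1287 lower (2923 and 2543 without it). Low signal over background limits RSPO1, RSPO2, LGR5 and most WNT ligands.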
